A study of Mus musculus with 183 samples.

Results

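The mRNAs described are Eef1a1, Eef2, Eef1b2, Eef1g and Eef1d, which encode cytosolic translation elongation factors, and Pabpc1, Tpt1, Npm1 and Ncl, which are counted with them among the TOP mRNAs. They were chosen by gene name, 9 of the 53380 genes of the deposited count table, and all 9 are also listed among the 7240 mRNAs with relative binding values for RNA decay factors. The names were drawn up with earlier results of these data known, and no measured value entered the choice.

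TOP mRNAs carry a terminal oligopyrimidine tract, a cytidine at the cap followed by a short run of pyrimidines, and mTORC1 sets their translation through LARP1 and the 4E-BPs. When growth signals fall, these mRNAs leave polysomes and are stored in a stable form, so that they are known as abundant and long-lived messages. In elongation, eEF1A (Eef1a1) brings aminoacyl-tRNA to the ribosome, the eEF1B complex (Eef1b2 and Eef1d as exchange factors, Eef1g as a structural subunit) reloads eEF1A with GTP, and eEF2 (Eef2) moves the ribosome along the codons. PABPC1 binds the poly(A) tail, NPM1 and nucleolin (Ncl) are nucleolar proteins of ribosome assembly, and Tpt1 encodes the translationally controlled tumour protein.

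Decay was followed in gelatin-grown mouse embryonic stem cells (mESCs), kept in serum and LIF, whose transcription was stopped by actinomycin D, and the groups differed in the cytoplasmic helicase SKIV2L, which feeds mRNAs to the exosome, and in AVEN, a partner of SKIV2L. Clone 5F was Skiv2l fl/fl with CreERT2 expressed from the Rosa26 locus, and clone 7E was Aven-/- with CreERT2 and BirA at Rosa26 and a 3xFLAG-Avi tag on SKIV2L. The labels of the clone 7E half-life libraries give the tagged Skiv2l and Aven-/- without naming the loxP sites, whereas labels of other libraries from the same clone and the study's methods give Skiv2l fl/fl. Each genotype was 1 clone, so clone and genotype cannot be told apart. Both clones were measured at day 0 and after 4 days of 0.1 µM 4OHT, which activates CreERT2. On each day libraries were taken at 120, 240 and 360 min of actinomycin D. No day 4 library was without 4OHT, so 4OHT and the day cannot be told apart. A change or response with 4OHT below therefore means day 4 against day 0. The mock libraries, taken as 0 min, received DMSO for 6 h. Each combination has 3 libraries, save clone 5F at day 0 and 120 min with 2, which makes 47. The study calls these replicates technical, so p-values measure that spread only.

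Total gene counts lay between 24440935 and 34114250.0 per library, so that counting error was small for 8 of the members, with mean counts from 11545 (Eef1g) to 135911 (Eef2). Only uniquely mapped reads were counted, Tpt1 has near-identical processed copies, and its mean count was 524. One such copy, Tpt1-ps3, had a mean of 375 counts, and the values of Tpt1 are uncertain. Skiv2l was at 148 ± 0.290 CPM (counts scaled to a common library total, SD, n = 3) in mock libraries of clone 5F at day 0 and at 143 ± 10.4 (SD, n = 3) in those labelled day 4, with a log2 difference of -0.0099 (adjusted p = 0.914, edgeR quasi-likelihood, Benjamini-Hochberg adjusted). Since the targeted gene did not pass the test there, these are called the libraries labelled day 4. In clone 7E, which had less Skiv2l from the start, it fell from 33.6 ± 2.46 to 13.1 ± 0.703 CPM (SD, n = 3 each). These counts cover the whole gene, floxed exons included. Aven was between 32.1 and 55.0 CPM in clone 5F and between 0.636 and 2.99 CPM in clone 7E. All 8 embryonic stem cell markers listed (Pou5f1, Nanog, Sox2, Zfp42, Esrrb, Klf4, Tdgf1 and Dppa5a) had a median of at least 21.1 CPM. Fibroblast or feeder markers summed to 2.81 to 30.7 CPM over all libraries, mock and actinomycin D together. On the same basis, primitive endoderm markers summed to 1.41 to 62.3 and neural markers to 5.06 to 80.4.  The mock ratio of mRNA to ERCC spike-in counts was 348 ± 14.5 and 341 ± 15.3 in clone 5F, 319 ± 5.59 in clone 7E at day 0 and 153 ± 2.35 at day 4 (SD, n = 3 each). Less RNA per cell and fewer cells per well cannot be told apart in such a ratio.

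Because the TOP tract gives these mRNAs their name, the annotated starts were searched for it. RefSeq start windows of GRCm38.p6 were matched by symbol for 5 of the 9 members (Eef1a1, Eef2, Eef1b2, Tpt1 and Ncl). On the transcribed strand, from 10 bases before to 50 after the start, the longest C followed by at least 4 further pyrimidines is shown in capitals within 30 bases.
Eef1a1: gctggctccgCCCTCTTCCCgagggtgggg
Eef2: cgtcagcggtCTCTTCCgccgcagccgccg
Eef1b2: tgcgtccgagcgCTTTCgttcaactccggc
Tpt1: cggtgacgtagccgagcgtgCCCTCTatat
Ncl: gccgaagtcacgaggaCCCCCTTCgtcgcc
The windows lie at chr9:78481710-78481739 on the minus strand, chr10:81176636-81176665 on the plus strand, chr1:63176851-63176880 on the plus strand, chr14:75845276-75845305 on the plus strand and chr1:86359406-86359435 on the minus strand. Counted from the RefSeq start, the run of Eef2 (7 bases) begins at base 16, that of Eef1b2 (5 bases) at base 33 and that of Ncl (8 bases) at base 37. In Eef1a1 a run of 10 bases begins 5 bases before the RefSeq start, and in Tpt1 a run of 6 begins at base 41. Such a run is present in 58.1% of the 32851 windows of the table. At the RefSeq start itself 2.51% begin with it, which none of the 5 does. The Ncl window shown lies outside the Gencode M21 span of the gene, which ends at chr1:86359400, and the Tpt1 span begins at chr14:75845093. The annotations thus place these starts differently, and Gencode starts were not searched. A match or its absence here describes the letters of the window only.

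In mock libraries the members spanned a wide range of levels. On the scale of CPM per kb of the transcript listed in the binding table, in clone 5F at day 0, Eef1a1 stood highest at 1640.1 ± 58.0 (SD, n = 3). It was followed by Eef2 at 1125 ± 39.7 and Npm1 at 1051 ± 79.8, whose libraries overlapped, and by Eef1b2 at 842 ± 11.4 (SD, n = 3 each). The exchange factor Eef1d was at 229.7 ± 1.72 and the structural subunit Eef1g at 186 ± 4.25 CPM per kb (SD, n = 3 each), so the libraries of the 3 eEF1B subunits did not overlap. Pabpc1 lay between these last 2 at 216 ± 5.74 (SD, n = 3). Ncl was at 443 ± 16.9 (SD, n = 3), but the listed Ncl transcript of 8202 nt reaches far beyond its coding sequence (bases 178 to 2301), which lowers this value. The listed Eef1b2 transcript, of 1939 nt with coding bases 388 to 1065, is also long for its coding sequence. The place of Eef1b2 may therefore depend on the transcript listed. Tpt1 came last at 13.4 ± 0.815 (SD, n = 3), for the uniquely mapped reads alone. Clone 7E gave the same places at day 0 to Eef1a1, Eef2, Npm1, Eef1b2, Ncl, Eef1g and Tpt1. Pabpc1 stood before Eef1d there, with libraries that overlapped, and those of Eef1d and Eef1g overlapped too. The authors' median RPKM of the tagged lines, also scaled to library total and transcript length, gave another order at the top. Eef1b2 was first there at 2228.7, before Npm1 at 1819.4, Eef1a1 at 1494, Eef2 at 927 and Ncl at 616. From Ncl down, the order was that of clone 5F at day 0. Those lines and libraries are others, and the source of the difference was not tested.

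The genes lie on 7 chromosomes of GRCm38, by the Gencode M21 annotation. Eef1a1 (ENSMUSG00000037742.14) is at chr9:78478449-78489151, Eef2 at chr10:81176631-81182498, Eef1g at chr19:8967041-8978479 and Tpt1 at chr14:75845093-75848525. On chromosome 1 lie Eef1b2 (chr1:63176825-63180486) and Ncl (chr1:86344719-86359400), on chromosome 15 lie Pabpc1 (chr15:36595661-36609668) and Eef1d (chr15:75894205-75909556), and Npm1 is at chr11:33152287-33163206. By their labels the libraries were made with the TruSeq v2 kit, which does not mark the strand, and the setting of strand in the counting of these files is not given in the sources used here. Exons of Eef1b2 overlap those of Ndufs1 on the opposite strand, which had a mean of 11303 counts, and reads from the 2 genes may be mixed there. Exons of Eef1d overlap those of Naprt on the same strand, with a mean of 701.

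After transcription was stopped, 7 of the 9 members rose relative to the RNA pool in each clone and on each day. They were Eef1a1, Eef2, Eef1b2, Eef1g, Eef1d, Pabpc1 and Npm1, while Tpt1 and Ncl did not pass the test (slope of log2 abundance on time with TMM scaling, adjusted p under 0.05, edgeR quasi-likelihood, Benjamini-Hochberg adjusted). None fell. Over all genes tested, 28.7% rose in this sense in clone 5F at day 0 and 29.5% in its libraries labelled day 4, with 30.3% and 28% in clone 7E. The median slope of the members was 0.081 and 0.080 log2 per hour in clone 5F at day 0 and labelled day 4 and 0.078 and 0.065 in clone 7E, beside medians over all genes of -0.0028, 0.0051, 0.0035 and 0.012. A positive slope means only that an mRNA lost less than the pool did. At 120 min the mean CPM of the 8 members other than Tpt1 was already 1.10 to 1.48 times that of the mock libraries, and at 360 min 1.06 to 1.57 times. Without the mock libraries, whose cells received DMSO in place of actinomycin D, 1 member was called in each case. This was Eef1d in clone 5F at day 0 (slope 0.065) and otherwise Tpt1. Tpt1 was lower in clone 7E at day 0 and higher in both others. The median slope of the members was then 0.021 and 0.011 in clone 5F and 0.0069 and 0.0030 in clone 7E. Over all genes it was 0.014 and 0.017 in clone 5F and 0.0072 and 0.0030 in clone 7E. From 120 min on, the members thus lost about as much as the pool, by their median.

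Among the elongation factors, the exchange factor Eef1d had 393, 395 and 399 CPM in the mock libraries of clone 5F at day 0 and 583, 563 and 634 CPM at 360 min. The groups did not overlap, and over the 4 combinations of clone and day its mean CPM at 360 min was 1.40 to 1.57 times that of the mock libraries. Its slope was 0.12 and 0.12 in clone 5F and 0.11 and 0.092 in clone 7E, in log2 per hour (adjusted p from 3.22e-05 to 0.000448). Eef1a1, which brings tRNA to the ribosome, had 2898, 3061 and 2868 CPM in the mock libraries of clone 5F at day 0 and 4314, 3867 and 4259.8 CPM at 360 min. It rose in all 4 combinations, to 1.36 to 1.48 times mock, with slopes of 0.10 and 0.100 in clone 5F and 0.10 and 0.086 in clone 7E (adjusted p from 0.00146 to 0.00638). The structural subunit Eef1g had 355, 339.6 and 348 CPM in the mock libraries of clone 5F at day 0 and 444, 445 and 466 CPM at 360 min. Again no library at 360 min reached down to the mock libraries, and the ratio of the means was 1.25 to 1.37 over the combinations.

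The translocation factor Eef2 had 3366, 3608 and 3450.1 CPM in the mock libraries of clone 5F at day 0 and 4658, 4363 and 4639 CPM at 360 min. The ratio to mock was 1.20 to 1.31, and its slope was 0.081 and 0.064 in clone 5F and 0.064 and 0.065 in clone 7E, in log2 per hour (adjusted p from 0.00228 to 0.0193). The exchange factor Eef1b2 had 1616, 1624 and 1657 CPM in the mock libraries of clone 5F at day 0 and 1938, 1949 and 1908 CPM at 360 min. Of the members that passed, it had the smallest slopes, 0.060 and 0.062 in clone 5F and 0.059 and 0.044 in clone 7E, in log2 per hour (adjusted p from 0.00409 to 0.0475), and also the smallest standard errors. Libraries of both genes at 360 min lay above the mock libraries in all 4 combinations.

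Pabpc1, for the poly(A)-binding protein, had 591, 622 and 615 CPM in the mock libraries of clone 5F at day 0 and 966, 1041 and 845 CPM at 360 min. At 360 min in clone 7E it had 938, 713 and 691 CPM at day 0 and 1093, 1088 and 815 at day 4, against 599, 611 and 575 and 675, 717 and 819.7 in mock libraries. The groups overlapped at day 4 and not at day 0, and the slope was 0.13 and 0.11 in clone 5F and 0.085 and 0.094 in clone 7E, in log2 per hour (adjusted p from 0.000260 to 0.0330). The nucleolar chaperone gene Npm1 had 1781, 1566 and 1802 CPM in the mock libraries of clone 5F at day 0 and 2041, 2235 and 2369 CPM at 360 min. Its slope was 0.076 and 0.080 in clone 5F and 0.078 and 0.063 in clone 7E (adjusted p from 0.00453 to 0.0199). The nucleolin gene Ncl had 3652, 3493 and 3768 CPM in the mock libraries of clone 5F at day 0 and 4116, 4501 and 3935 CPM at 360 min. These did not overlap, but in the libraries labelled day 4 of that clone, with 3756, 4073 and 3845 in mock and 4617, 4285 and 3436 at 360 min, they did, and its slope was 0.055 and 0.037 in clone 5F and 0.057 and 0.033 in clone 7E (adjusted p from 0.0677 to 0.415). Tpt1 varied most, for instance 26.9, 24.8 and 8.68 CPM among the 3 libraries of clone 7E at day 0 and 240 min, and its slopes were 0.054 and 0.076 in clone 5F and -0.086 and 0.055 in clone 7E.

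By overlap alone, all libraries at 360 min lay above all mock libraries for 8 of the 9 members in clone 5F at day 0, where 28.7% of all genes did so, and for 7 in its libraries labelled day 4 (27.3%). In clone 7E this held for 7 members at day 0 (27.4%) and 5 at day 4 (25.7%). Leaving out a replicate number changed the count called in the test. In clone 7E at day 4 it was 3 without replicate 1, 2 or 3. In clone 7E at day 0 it was 4 without replicate 2, and in the libraries of clone 5F labelled day 4 it was 4 without replicate 3.

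**Figure D1:**
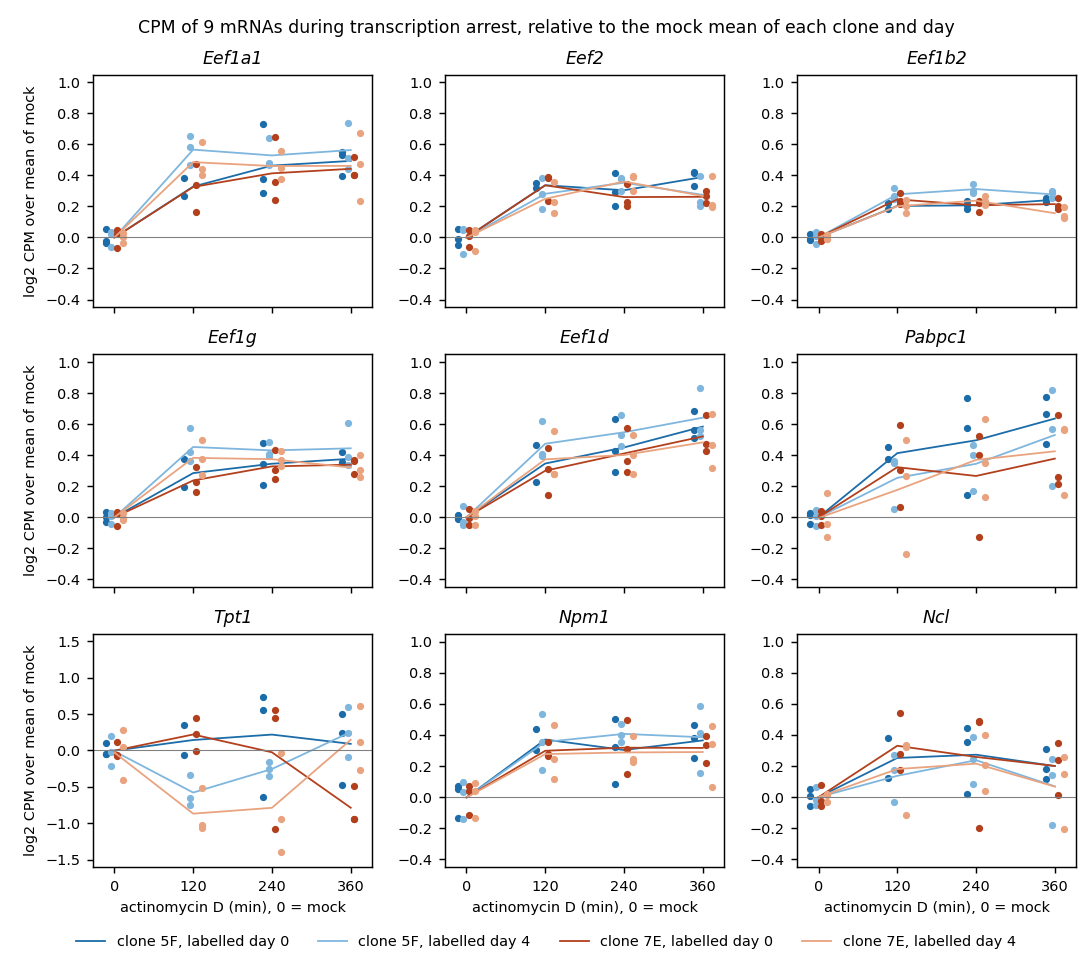
Log2 CPM relative to the mean of the mock libraries (y axis) against minutes of actinomycin D (x axis), with 1 panel per gene, 1 point per library and lines through the group means for each clone and labelled day. All panels share a y axis except that of Tpt1, which is wider. The lines of 8 genes rise above 0 by 120 min and those of Tpt1 scatter around it.

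Decay was then estimated with 1 spike-in factor per time point, the same for both clones and days. Differences between groups in the loss of the whole pool are therefore not part of these values. On this scale of normalized counts every member declined. In clone 5F at day 0, the share of the mock level left at 360 min ranged from 48.7% for Tpt1 and 50.6% for Ncl to 66.0% for Eef1d and 68.6% for Pabpc1. Eef1a1 kept 62.0%, Eef2 57.6%, Eef1g 57.1%, Npm1 56.7% and Eef1b2 52.0%. The fitted half-lives at day 0 of clone 5F therefore ran from 340.3 min (Tpt1) to 641 min (Pabpc1). The 1 standard error range was 513 to 854 min for Pabpc1, 521 to 692 for Eef1d and 467 to 614 for Eef1a1, so these 3 were not separated. Eef1b2, with 363 to 402 min, and Ncl, with 331 to 417 min, lay below them without overlap. Half-lives longer than the 360 min of the experiment are extrapolated.

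Taken over the members, the median half-life was 441 min in clone 5F at day 0, 421 min in its libraries labelled day 4, and 403 and 357 min in clone 7E at day 0 and day 4. With the spike-ins of each library as the scale these last 2 values were 415 and 414 min. Without the mock libraries they were 422 and 416 min, where Tpt1, which did not decline at day 4, was counted as the longest-lived member. The days of clone 7E thus lay closer together under both alternatives. The medians over the 10593 genes with a mean of at least 100 counts were 290.2, 291, 291 and 287 min. These use the shared factors with the mock libraries kept, and no such medians were computed under either alternative. Eef1d was the longest-lived elongation factor mRNA in each of the 4 cases, with 594, 581, 526 and 428 min, at the percentiles 88.3, 89.6, 88.0 and 85.6 of those genes. Ncl had 369, 319, 350.3 and 297 min, nearer to the median of all genes. Pabpc1 had 641 min in clone 5F and 417 min in clone 7E at day 0, with a range of 342 to 533 in the latter.

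**Figure D2:**
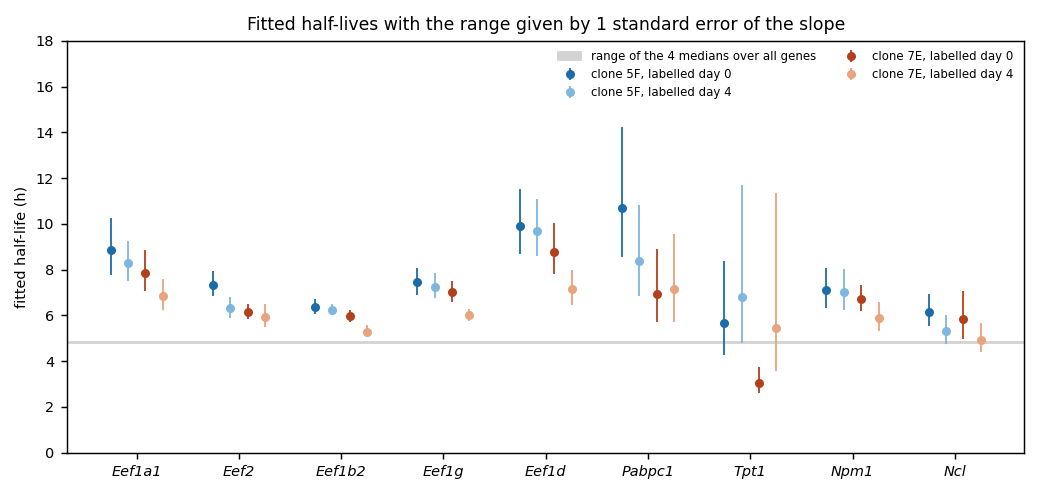
Fitted half-life in hours (y axis) of each gene (x axis) for the 4 combinations of clone and labelled day, with bars for the range given by 1 standard error of the slope and a grey band for the range of the medians over 10593 genes. The point of Tpt1 for clone 7E at day 0 lies below the band and all other points lie above it.

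The design asks whether loss of SKIV2L alters decay. No member passed the test for a change in decay with 4OHT in either clone. This test and those between clones use the same shared factors, so each compares an mRNA with the pool. In clone 5F the interaction of time with labelled day was between -0.025 and 0.013 log2 per hour for the 9 members, with standard errors from 0.012 to 0.074 (0 called, and 0 at an unadjusted p under 0.05, edgeR quasi-likelihood, Benjamini-Hochberg adjusted). In clone 7E, where Skiv2l fell, it was between -0.032 and 0.13 (0 called, 0 at an unadjusted p under 0.05, lowest adjusted p = 0.670). Of all genes tested, 0.196% were called in clone 5F and 0.884% in clone 7E, so that 0 of 9 is near the background. DESeq2, or the spike-ins of each library as the scale, also called 0 members in both clones.

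Of single members in clone 7E, Eef1d had a difference of -0.026 ± 0.020 log2 per hour (SE), Eef1g of -0.024 ± 0.013, Eef1b2 of -0.022 ± 0.013 and Eef2 of -0.0060 ± 0.016. None of these passed the test. Pabpc1 had 0.0011 ± 0.042 and Tpt1 0.13 ± 0.100, with the widest errors. In clone 5F the values of Eef1d, Eef1g and Eef1b2 were -0.0021 ± 0.019, -0.0033 ± 0.016 and -0.0028 ± 0.012. When 50 genes with at least 10000 counts were given a change of 0.1 log2 per hour in simulated data, 32.0% were called in clone 5F and 42.0% in clone 7E, and at 0.05 it was 0% and 4%. Changes of this size were thus recovered only in part. Without the mock libraries Tpt1 alone was called in clone 7E (0.51 log2 per hour, adjusted p = 0.0440).

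The clones were also compared with each other. Marker levels differed between them: at day 0 the 5 fibroblast or feeder markers summed to 22.1 to 30.7 CPM in clone 5F and 2.81 to 5.60 in clone 7E, with Dcn under 1 CPM in every library, the 3 primitive endoderm markers to 16.6 to 62.3 and 1.41 to 6.16, and the 3 neural markers to 6.19 to 42.0 and 14.7 to 80.4. The 8 stem cell markers summed to 3203 to 3822 CPM in clone 5F at day 0 and 3012 to 3609 in its libraries labelled day 4, and to 2846 to 3218 CPM in clone 7E at day 0 and 2214 to 2701 at day 4. Each of these ranges covers mock and actinomycin D libraries together. The part of these levels in the values that follow was not tested. At day 0 the slope of clone 7E minus that of clone 5F was negative for all 9 members, from -0.15 (Tpt1) to -0.0071 log2 per hour (Ncl), with 0 called and 0 at an unadjusted p under 0.05. At day 4 it was again negative for all 9, from -0.037 (Eef1d) to -0.0099 (Eef2), and 0 were called (edgeR quasi-likelihood, Benjamini-Hochberg adjusted). Eef1b2, at -0.029 ± 0.012, and Eef1g, at -0.029 ± 0.014, were those under 0.05 before adjustment, with adjusted p of 0.467 and 0.610. The background was 0.0376% of genes called at day 0 and 0.242% at day 4, and the medians over all genes were 0.0012 and -0.0019. With the spike-ins of each library as the scale, the median of the members at day 4 moved from -0.027 to 0.0032, as the median of all genes moved to 0.028. With that scaling only Eef1d and Tpt1 kept a negative value at day 4. The difference between clones in the response of decay to 4OHT was called for 0 members (0% of all genes), and ranged from -0.024 to 0.12 log2 per hour. For this comparison 0 of the members and 476 of all 18623 genes were under 0.05 before adjustment, and DESeq2 also called 0 members.

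**Figure D3:**
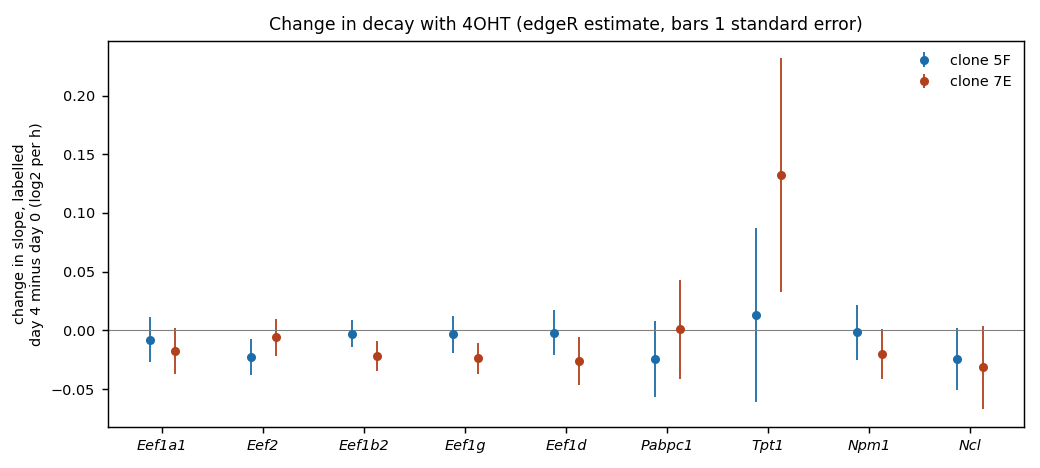
Change in slope between the libraries labelled day 4 and day 0, in log2 per hour (y axis), for each gene (x axis) in clones 5F and 7E, with bars of 1 standard error from the edgeR fit. The points of 8 genes lie close to 0 in both clones and that of Tpt1 in clone 7E has the widest bar.

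Steady-state levels did differ between day 0 and the libraries labelled day 4 for some members. Eef2 and Pabpc1 were higher in mock libraries labelled day 4 than at day 0 in both clones. In clone 5F, Eef2 had 94778, 101214 and 98083 normalized counts at day 0 and 122755, 110082 and 122046 in those labelled day 4, a log2 difference of 0.27 ± 0.049 (SE, adjusted p = 0.000357, edgeR quasi-likelihood, Benjamini-Hochberg adjusted). In clone 7E it had 106196, 114116 and 112063 and 144873, 134288 and 147315, a difference of 0.36 ± 0.048 (adjusted p = 1.91e-06, same test). Pabpc1 had 16639.8, 17439 and 17495 and 20643, 21628 and 22218 in clone 5F, which is 0.32 ± 0.044 in log2 (adjusted p = 1.87e-05). In clone 7E its libraries had 17279, 17563 and 16639 and 19901, 21284 and 24394, which is 0.35 ± 0.056 (adjusted p = 2.51e-05). The groups did not overlap in any of these 4 cases.

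The remaining calls differed by clone. In clone 5F, Tpt1 was higher by 0.61 ± 0.088 log2 (adjusted p = 3.35e-05), with 473, 424 and 431 against 581, 666 and 774 normalized counts, and Ncl by 0.13 ± 0.047 (adjusted p = 0.0450), with 102816, 97982 and 107125 against 108561, 117962 and 111094. In clone 7E, Ncl differed by -0.11 ± 0.047 (adjusted p = 0.0710), with 102252, 94970.3 and 93509.7 at day 0 and 87384, 91255 and 91292 at day 4, so that the groups were apart but the test was not passed. Eef1a1 was higher in clone 7E by 0.13 ± 0.045 (adjusted p = 0.0271), with 85765, 92476 and 91653 against 99683, 96236 and 99082, whereas in clone 5F it differed by -0.052 ± 0.045 with overlapping libraries. The 3 eEF1B subunits did not pass in either clone. Every day 4 library of Eef1g lay below those of day 0 in both, by -0.097 ± 0.043 and -0.11 ± 0.045 (adjusted p = 0.108 and 0.0602), and the values of Npm1 were -0.015 ± 0.060 and 0.036 ± 0.056.

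Counted together, 4 members were called in clone 5F, all higher, beside 12.8% of all genes called higher, and 3 in clone 7E, beside 20.7%. None was called lower, beside 11.6% and 19.4% of all genes. Groups did not overlap for 4 members upwards and 1 downwards in clone 5F (18.9% and 18.9% of all genes) and for 4 and 2 in clone 7E (24.5% and 24.3%). Without replicate 1 the count in clone 7E was 2, without replicate 2 it was 6 (4 higher and 2 lower) and without replicate 3 it was 5. These levels are relative to the mRNA pool of each library. With the spike-ins of each library as the scale, the median of all genes in clone 7E moved to -1.11, and all 9 members were called lower, from -1.21 (Eef1g) to -0.74 (Eef2). Relative to that shift, Eef2 at -0.74 and Pabpc1 at -0.75 still lay above the median. In clone 5F, Eef2, Pabpc1 and Tpt1 stayed called higher with that scaling, where the median of all genes was -0.074.

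The difference between clones in this response passed the test for 2 members, beside 11.9% of all genes. Ncl responded lower in clone 7E by -0.24 ± 0.063 log2 (adjusted p = 0.0136) and Eef1a1 higher by 0.18 ± 0.058 (adjusted p = 0.0457, edgeR quasi-likelihood, Benjamini-Hochberg adjusted). For Eef2 the difference was 0.089 ± 0.067 and for Pabpc1 0.027 ± 0.076, so that a difference between clones in the rise of these mRNAs was not shown, and for Tpt1 it was -0.41 ± 0.17 (adjusted p = 0.124). With replicate 1 or 2 left out, 0 members were called in this comparison, and 1 without replicate 3. Before 4OHT, clone 7E had more Eef2 (0.18 ± 0.047 log2, adjusted p = 0.00479) and Eef1a1 (0.12 ± 0.041, adjusted p = 0.0301) and less Eef1d (-0.15 ± 0.043, adjusted p = 0.00692) than clone 5F, where 18.1% of all genes were higher and 18.1% lower. With own spike-ins 0 of the members were higher and 4 lower in that comparison, and without replicate 1 the count called was 1.

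**Figure D4:**
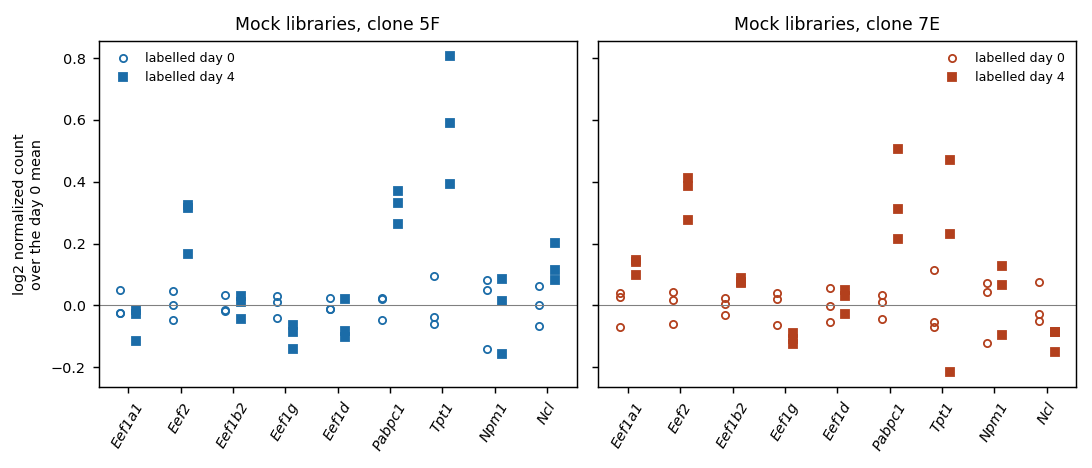
Log2 of the normalized count over the day 0 mean (y axis) of each gene (x axis) in the mock libraries of clone 5F (left) and clone 7E (right), with open circles for day 0 and filled squares for libraries labelled day 4. The squares of Eef2 and Pabpc1 lie above all circles in both clones, and those of Ncl lie above them in clone 5F and below them in clone 7E.

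Related genes, from lists set with earlier results known, gave the setting of these values. In clone 5F at day 0, 28.7% of all genes tested rose relative to the pool and 33.8% fell. Of 15 other TOP-type mRNAs, 10 rose relative to the pool in clone 5F at day 0, with a median slope of 0.090 log2 per hour. The translation initiation subunit gene Eif3k (0.14 ± 0.024) and the ribosome-bound scaffold gene Rack1 (0.11 ± 0.025) were among those that rose. Of 81 ribosomal protein genes tested, 49 rose and 17 fell, with a median of 0.082. The largest of these changes were falls, of Rpl24 (-0.76 ± 0.11), Rpl3 (-0.50 ± 0.049) and Rps29 (-0.31 ± 0.077), and such genes also have processed copies that share reads. In the list of other elongation machinery, 6 of 11 rose, the eEF2 kinase gene Eef2k among them (0.12 ± 0.018), and 4 fell, led by Dph2 (-0.40 ± 0.020), which takes part in making the diphthamide of eEF2. Over the 4 combinations 10 to 11 of the other TOP-type mRNAs and 43 to 51 of the ribosomal protein genes rose. All 4 mitochondrial elongation factor mRNAs (Tufm, Tsfm, Gfm1 and Gfm2) rose in clone 5F at day 0 and 3 of 4 in clone 7E at day 4, with Gfm2 in clone 5F at day 0 by 0.14 ± 0.016 log2 per hour. In clone 5F at day 0, regulators of TOP translation split into 6 that rose, such as Eif4ebp2 (0.15 ± 0.025), and 6 that fell, such as Larp4b (-0.19 ± 0.020), and of the nucleolar partners of Npm1 and Ncl 3 of 9 rose and 1 fell, Nop2 by -0.13 ± 0.014.

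In the mock libraries of clone 7E, 2 of the 15 other TOP-type mRNAs were higher at day 4 and 1 lower, and in clone 5F 1 and 2. Hnrnpa1 was higher in both (0.18 ± 0.059 and 0.22 ± 0.061 log2) and Naca lower in both (-0.15 ± 0.054 and -0.19 ± 0.053). Eef2k, whose kinase inhibits eEF2, was higher by 0.72 ± 0.065 in clone 7E (adjusted p = 4.20e-09) and by 0.30 ± 0.064 in clone 5F (adjusted p = 0.00162), and its response differed between the clones by 0.41 ± 0.095 (adjusted p = 0.00486). The gene of the mTORC1 substrate 4E-BP, Eif4ebp1, was higher by 0.61 ± 0.049 in clone 7E and 0.26 ± 0.053 in clone 5F, a difference of 0.36 ± 0.076 (adjusted p = 0.00260). It was also the only gene of all 6 lists whose decay changed with 4OHT, in clone 7E, by -0.10 ± 0.019 log2 per hour (adjusted p = 0.00255). The box C/D snoRNP gene Nop56 rose by 0.65 ± 0.042 in clone 5F and 0.30 ± 0.044 in clone 7E. Among ribosomal protein genes 12 of 81 were higher and 6 lower in clone 5F, and 14 and 2 in clone 7E. Of all genes, 12.8% were higher and 11.6% lower in clone 5F, and 20.7% and 19.4% in clone 7E. The share of ribosomal protein genes called higher was thus a little above that of all genes in clone 5F and below it in clone 7E. For the other TOP-type mRNAs the share called higher was below it in both clones. Ribosomal protein genes called lower made up a smaller share than among all genes in both clones. Rpl3 was at 1.14 ± 0.058 and 0.80 ± 0.054. All of these values use the scaling within the mock libraries and are relative to the pool.

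Within groups several members divided in a repeated way. In each of the 15 groups with 3 libraries, the library with the lowest ratio of mRNA to ERCC counts was compared with the other two. That library had the highest CPM of Npm1 in 13 groups, of Eef1d in 13, and of Eef1a1 and Eef1g in 11 each, and the lowest CPM of Pabpc1 and Ncl in 12 each. Eef2 and Eef1b2 were lowest there in 8 groups each and highest in 3 and 2. Over the 5088 genes with a mean of at least 1000 counts, the median gene was highest in that library in 7 groups and lowest in 3. The 95th percentile of either count was 13, which only Npm1 and Eef1d reached. With that ratio as a covariate, an alternative chosen after seeing the data, the members called for persistence were 8 and 7 in clone 5F and 8 and 7 in clone 7E. The part of the ratio in the single values above was not tested.

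Across the 47 libraries, among the genes whose log2 CPM followed the mean of the members most closely were Pih1d1 (Pearson r = 0.954), Ybx1 (0.953), Cox6a1 (0.951) and Crtap (0.948). These are descriptions over libraries that share their time points, and the same holds for the members among themselves. Eef1b2 followed the mean of the other members with r = 0.884, Eef1d with 0.834, Pabpc1 with 0.628, Ncl with 0.465 and Tpt1 with 0.0132. Introns of some members host snoRNAs, whose counts were lower at 360 min. Snora41, in Eef1b2, had a median count of 187 in the 12 mock libraries and 11.5 in the 12 at 360 min, without overlap (from 106 to 358 and from 6 to 21). Snora31, in Tpt1, had 178 and 46.0. Snord82, in Ncl, had 46.0 and 4.50, and Snord37, in Eef2, 20.0 and 3.00. These medians are raw counts, and the counts do not tell the snoRNA from its precursor.

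The last question is which decay factor these mRNAs contact. CRAC sequences the RNA fragments that UV light crosslinks to a tagged protein, and the authors' deposited table gives, for each mRNA, the shares of SKIV2L, XRN1 and MTR4 in pooled and scaled reads, which sum to 1. Being pooled, these values carry no error between replicates. All 9 members lay above the SKIV2L median of the 7240 mRNAs, 0.267. Eef1d had a SKIV2L share of 0.696 (percentile 98.8), Eef1g of 0.640 (97.5) and Ncl of 0.588 (95.1). Npm1 (0.569), Eef2 (0.540), Eef1b2 (0.487), Tpt1 (0.475) and Eef1a1 (0.438) followed, and Pabpc1 was nearest to the median at 0.302 (percentile 58.5). High shares of SKIV2L are common among abundant mRNAs, however. In the 849 mRNAs whose median RPKM reached 100 the median was 0.475, and among these Eef1d lay at the percentile 95.3, Eef1g at 90.0, Eef1b2 at 52.4, Eef1a1 at 41.9 and Pabpc1 at 13.8, while Tpt1, with a median RPKM of 65.6, is not in that set.

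The shares of MTR4, the helicase of the nuclear exosome, were below the median of all mRNAs for 8 of the 9 members. Eef1g had 0.0805 (percentile 0.677), Eef1d 0.0980 (1.62), Eef2 0.114 (2.90), Eef1a1 0.118 (3.38) and Npm1 0.125 (4.03), against a median of 0.319 over all mRNAs. Pabpc1, at 0.368, was the member above that median. Among the 849 abundant mRNAs the median was lower, 0.209, and there Ncl lay at the percentile 54.4, Eef1b2 at 53.1 and Pabpc1 at 90.1, against 11.1 or less for the 5 named first. For XRN1, the cytoplasmic 5'-3' exonuclease, Eef1a1 had the highest share of the members, 0.444 (percentile 72.8), which exceeded its SKIV2L share, and Ncl the lowest, 0.194 (17.0). The AVEN value, a ratio to the sum of the other 3 proteins, was highest for Tpt1 at 0.618 (percentile 94.8), followed by Pabpc1 at 0.481 (85.5) and Eef2 at 0.410 (75.9), and lowest for Eef1a1 at 0.201 (24.4). The median over all mRNAs was 0.295. Among the 849 abundant mRNAs it was 0.326, and there Pabpc1 lay at the percentile 88.2, Eef2 at 76.6 and Eef1a1 at 10.4. CRAC reads too were kept only where they mapped uniquely, so the binding values of Tpt1 are uncertain as well. Eef1d and Eef1g, which had the largest SKIV2L shares, had differences in decay in clone 7E of -0.026 ± 0.020 and -0.024 ± 0.013 log2 per hour. Pabpc1, with the smallest share, had 0.0011 ± 0.042, and the other members lay between -0.032 (Ncl) and 0.13 (Tpt1). None of these passed the test, and a relation between SKIV2L share and change in decay was not tested.

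**Figure D5:**
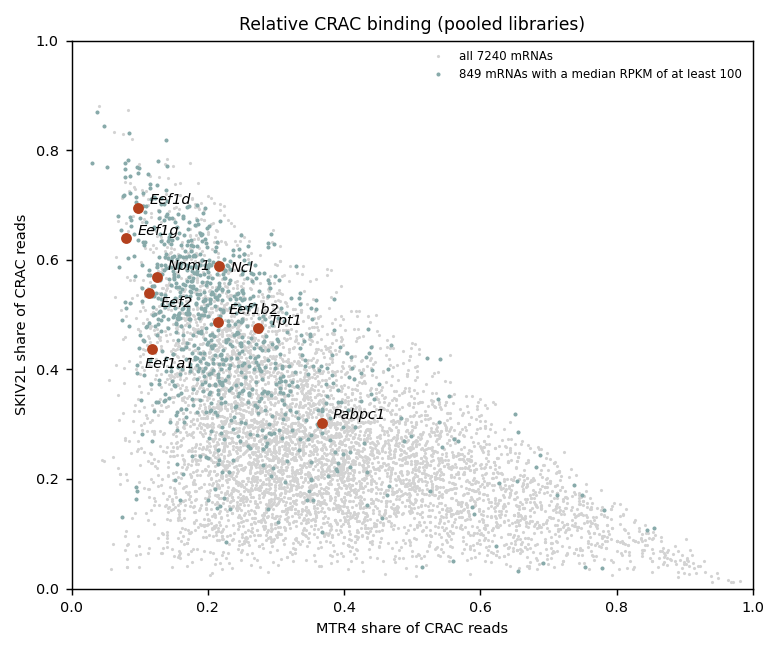
SKIV2L share (y axis) against MTR4 share (x axis) of CRAC reads for all 7240 mRNAs (grey), the 849 whose median RPKM reached 100 (blue-grey) and the 9 members (red, named). Eef1d and Eef1g lie at the upper left among the abundant mRNAs and Pabpc1 lies in the middle of the cloud.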

How the data were processed

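rRNA-depleted RNA of 47 libraries was sequenced by the authors, who mapped reads to GRCm38 (mm10) with STAR (2.5.0a in the study's RNA-seq methods) and deposited the counts of uniquely mapped reads per gene without normalization, for 53380 genes and 92 ERCC spike-ins. The authors' deposited SKIV2L, XRN1 and MTR4 fractions, the AVEN ratio, the RPKM values and the score of each fraction divided by RPKM come from pooled CRAC and RNA-seq libraries of tagged lines; the submitters' processing notes name Bowtie2 and STAR. The labels list 6 such CRAC libraries for SKIV2L, 5 for XRN1, 3 for MTR4 and 3 for AVEN. For SKIV2L, XRN1 and MTR4 the study reports 5 or 6 replicates, with 3 MTR4 datasets published before. The MTR4 pool may therefore hold libraries that these labels do not list. The authors' half-lives, log2 fold changes and adjusted p-values were not used. The study gives the dose of actinomycin D in µM and the labels give 5 µg/µl.

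Counts were analysed with edgeR 4.0.16 and DESeq2 1.42.0 in R 4.3.3. Genes were kept by filterByExpr, fitted all together, and called at an adjusted p under 0.05. Persistence used TMM. Decay and mock tests used size factors within each time point, and the fall of the mRNA to ERCC ratio from mock, as a single median for each time point. Of 92 ERCC sequences, 34 exceeded a mean of 50 counts and were used. A normalized count is the count over its size factor, times that fall. Half-lives come from the least-squares slope of ln(normalized count + 1). Of the 53380 genes, 53274 had a symbol. The members, lists and tests were chosen with earlier results of these data known. All 9 members are named; from each list, up to 3 genes per comparison with the largest called change; the likeness rule took 5 genes with a mean of at least 1000 counts. Values of some genes that these rules select are not reported here. On simulated data, 90.0% to 100% of 50 genes with at least 10000 counts and a mock change of 0.4 log2 were recovered. At 0.2 log2 it was 60% to 68% for the mock levels and 10% for the difference between clones in the mock response. No library was a copy of another, the lowest chi-square per gene among replicate pairs being 2.43. Alternatives were other scalings, DESeq2, no filter, a replicate block, and leaving out replicates or mock libraries. Per-sample columns without a sample numbered 0.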

Additional observations from a re-analysis of the deposited data

Results flagged for a closer look

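The response of mock levels to 4OHT differed between the clones for 2 members by the test of the difference itself. Ncl differed by 0.13 log2 between day 4 and day 0 in clone 5F and by -0.11 in clone 7E, a difference of -0.24 log2 (adjusted p = 0.0136, edgeR quasi-likelihood, Benjamini-Hochberg adjusted), and in both clones the 3 libraries lay apart from day 0. Eef1a1 was higher in clone 7E, with a difference of 0.18 (adjusted p = 0.0457). With the replicate block Ncl alone was called, with own spike-ins the value of Eef1a1 was -0.85 log2 where the median of all genes was -1.03, Eef1a1 was not called with any 1 of the 3 replicates left out, and Ncl was called without replicate 3 only. The mean ratio of mRNA to ERCC counts went from 319 to 153 in clone 7E and from 348 to 341 in clone 5F, and the part of that in the 2 differences was not tested. No half-life group holds 4 or more libraries, so none was examined for a library far from the others.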

How the results depend on the processing

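Across 1062 values of single members under the alternatives, 891 kept direction and side of the threshold, 59 that passed the test neither way changed sign (17 of them with own spike-ins), 66 lost a call, 27 gained one and 19 turned. Without the mock samples, persistence was called for 1 member in each clone and day, in place of 7, and in clone 7E at day 0 that call was in the other direction; Eef2 (-0.017 log2 per hour) and Eef1b2 (-0.0058) turned there, as did Eef1a1 (-0.0053), Eef1b2 (-0.013) and Eef1g (-0.017) at day 4, and 1 member (Tpt1) was called for a change in decay in clone 7E. Without the mock samples the median persistence slope of the members lay near that of all genes. The cause was not tested. With own spike-ins, 9 members were called lower in the mock comparison of clone 7E, where these turned: Eef1a1 -0.97, Eef2 -0.74, Eef1b2 -1.02, Eef1d -1.08, Pabpc1 -0.75, Tpt1 -0.90 and Npm1 -1.06. In the clone 7E against 5F mock comparison at day 0 the count was 4, with Eef1a1 at -0.045. In the difference between clones it was 9, with Eef1a1 -0.85, Eef2 -0.94, Eef1b2 -0.95, Eef1d -0.96, Pabpc1 -1.004 and Npm1 -0.98. This scaling moved the median of all genes there to -1.03. The median half-life without the mock samples was 486 min in clone 5F at day 0 and 422 min in clone 7E at day 0, where own spike-ins gave 415 min. In clone 7E at day 4 it was 416 and 414 min under the same 2 alternatives. The median SKIV2L percentile of the members, 91.9, was 71.3 among abundant mRNAs.

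With a replicate left out, the members called were 5 to 7 and 4 to 7 for persistence in clone 5F at day 0 and day 4, 4 to 6 and 3 to 3 in clone 7E, 3 to 5 and 2 to 6 for mock levels in clones 5F and 7E, 1 to 3 between clones, 0 to 1 for the difference between clones, and 0 to 0 in the 5 decay comparisons. The median half-life ranged from 429.5 to 481 and 411 to 449 min in clone 5F and from 357 to 402 and 346 to 365 min in clone 7E. The replicate numbers were not taken to pair the samples in the main tests. Of 23 same-numbered pairs of day 0 and day 4, 13 had a correlation of deviations over 0.1 (lowest -0.40, highest 0.63). All 13 were pairs of libraries with actinomycin D, whereas same-numbered mock pairs had values from -0.40 to -0.050. Same-numbered libraries with actinomycin D thus often shared deviations, which the main tests do not model. With the replicate block, the calls were 7, 7, 7 and 6 for persistence, 0 for the decay comparisons, 3 and 2 for mock levels in clones 5F and 7E, 3 between clones and 1 for the difference between clones.

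DESeq2, TMM scaling or no filter on low counts kept each count of members within 1.5 times. The tests rest on 1 clone per genotype and technical replicates. Changes in decay under 0.1 log2 per hour were mostly not recovered in simulated data, Tpt1 is limited by reads that map to its copies, and CRAC values carry no replicate error or depth.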
